A study of Homo sapiens with 6 samples.

Results

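The genes for 9 small GTPases of the RAS branch were examined in MCF10.AT1 breast epithelial cells and in MCF10.AT1-R, the fluvastatin-resistant line derived from them. The 9 genes were HRAS, NRAS, RRAS, RRAS2 and MRAS of the RAS group, RAP1A and RAP1B of the RAP group, and RALA and RALB of the RAL group, out of 81496 gene symbols on the array. They were chosen by name. Each symbol stood on a single probe set, so the rule of taking the probe set with the highest mean over the 5 compared arrays left no choice among probe sets. MCF10.AT1 belongs to the MCF10A series of human breast cell lines and was made by introducing an activated HRAS gene into MCF10A, a spontaneously immortal and nontumorigenic breast epithelial line. MCF10.AT1-R was selected from MCF10.AT1 in fluvastatin, at doses of 1 and 5 µM and then up to 20 µM, and both lines were grown in the same medium. The labels do not say whether MCF10.AT1-R was in fluvastatin when its RNA was taken. Both lines thus descend from cells with the introduced HRAS, whose presence in MCF10.AT1-R was not measured here, and MCF10.AT1-R is a single selected line, so that differences that go with resistance and differences particular to this line cannot be told apart.

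Total RNA was hybridised to Clariom D arrays, which read messenger and noncoding RNAs with short probes, with 3 arrays per line that the labels call biological replicates. The values are log2 expression values after RMA (background correction, normalization between arrays and summary of the probes of a probe set), so a difference of 1 is a 2-fold difference in signal. Arrays A01 and A02, taken from their letter as MCF10.AT1, were compared with B02, B03 and B04, taken as MCF10.AT1-R. Array A03 of MCF10.AT1, which the study removed as an outlier, is given apart. Its correlation with the mean of the kept arrays was 0.795 over the transcript probe sets, while the other arrays lay between 0.986 and 0.989. The arrays were made to compare a fluvastatin-sensitive line with its resistant derivative.

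Small GTPases switch between a GTP-bound state that engages effectors and an inactive GDP-bound state. Exchange factors (GEFs) load GTP, and GTPase-activating proteins (GAPs) speed its hydrolysis. RAS proteins drive the RAF, MEK and ERK kinase cascade and the RAL exchange factors, RAP proteins control integrins and cell junctions, and RAL proteins act on the exocyst and membrane traffic. Most of them carry a C-terminal CAAX motif to which a lipid from the mevalonate pathway is attached, farnesyl in HRAS and NRAS and geranylgeranyl in RAP1A, RAP1B, RALA and RALB. Statins such as fluvastatin inhibit HMG-CoA reductase, which makes mevalonate. The arrays measure transcripts only, and neither the lipid, the GTP-bound state nor the protein was measured here. The probes cannot tell the introduced HRAS transcript from that of the cells' own gene.

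The sequence before the start of the cells' own genes is shown for HRAS and RALA, which had the largest differences between the lines among the genes above the controls, and for NRAS, whose difference was close to 0. The windows are the 250 bases upstream of the annotated start in RefSeq (GRCh38.p14), written 5′ to 3′ on the strand of the gene. HRAS is at chr11:535577-535826 on the minus strand, RALA at chr7:39623322-39623571 on the plus strand and NRAS at chr1:114716772-114717021 on the minus strand. Capitals mark GC boxes (GGGCGG, or CCGCCC on the other strand), CCAAT boxes and the ETS core CCGGAAG. The introduced HRAS may have another promoter, which is not shown.
HRAS: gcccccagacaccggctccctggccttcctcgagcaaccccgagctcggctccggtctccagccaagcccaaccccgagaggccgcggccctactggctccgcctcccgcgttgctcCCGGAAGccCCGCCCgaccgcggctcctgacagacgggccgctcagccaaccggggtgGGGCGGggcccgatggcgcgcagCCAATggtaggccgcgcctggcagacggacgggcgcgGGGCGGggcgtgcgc
RALA: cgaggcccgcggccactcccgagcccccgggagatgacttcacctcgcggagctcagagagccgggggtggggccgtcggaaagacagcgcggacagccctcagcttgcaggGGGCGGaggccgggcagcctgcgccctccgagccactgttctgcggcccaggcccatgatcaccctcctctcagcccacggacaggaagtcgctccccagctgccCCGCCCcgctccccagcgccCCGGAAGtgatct
NRAS: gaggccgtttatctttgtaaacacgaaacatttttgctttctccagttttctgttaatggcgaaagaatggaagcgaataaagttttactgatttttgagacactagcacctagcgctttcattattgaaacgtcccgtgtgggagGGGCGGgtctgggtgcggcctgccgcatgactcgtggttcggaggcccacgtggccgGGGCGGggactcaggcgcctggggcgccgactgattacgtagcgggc

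Searched on both strands, the HRAS window held 3 GC boxes, 1 CCAAT box and 1 ETS core, the RALA window 2 GC boxes and 1 ETS core, and the NRAS window 2 GC boxes. A window was given for 8 of the 9 genes, all but RRAS, with 4 windows for RRAS2 and 3 for MRAS. GC boxes stood in a window of 7 of the 8 genes and in 42.6% of the 35116 windows of the table. CCAAT stood in those of HRAS and RALB (32% of windows), and CCGGAAG in those of HRAS and RALA (8.52% of windows). The AP-1 motif TGANTCA (6.57% of windows) and the sterol regulatory element TCACNCCAC (0.883% of windows), the motif of the SREBP factors of cholesterol synthesis, stood in none of the windows of the 8 genes. HRAS and RALA, which share the GC box and ETS letters, differed between the lines in opposite directions. These matches describe letters only and do not show that a factor binds, and their part in the differences was not tested.

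The HRAS signal on every resistant array was below that on both parental arrays, RALA and RRAS2 signals were above, and the other genes overlapped between the lines or lay within the negative controls. Of the 9 genes, 7 entered limma, the test across the whole table, and none of the 7 passed its false discovery rate (FDR) of 5%. NRAS and RALB varied too little over the 5 arrays to pass the filter on variation. Among all 51457 probe sets tested, 620 (1.2%) passed FDR 5%, 0.758% higher and 0.447% lower in MCF10.AT1-R. At an unadjusted p under 0.05, 1 of the 7, HRAS, was called, beside 8.26% of all tested probe sets. For 4 of the 9 genes every array of MCF10.AT1-R lay on the same side of both MCF10.AT1 arrays (HRAS below, and RRAS2, MRAS and RALA above), which is called no overlap here. This was so for 23.3% of all transcript probe sets (12.2% above and 11.1% below), 26.7% of those tested and 31.5% of those above the negative controls on all 5 arrays, beside 3 of the 8 GTPase genes above the controls, a share near this background. The median log2 difference of the 9 genes was 0.21, against 0.01 over all transcript probe sets.

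**Figure D1:**
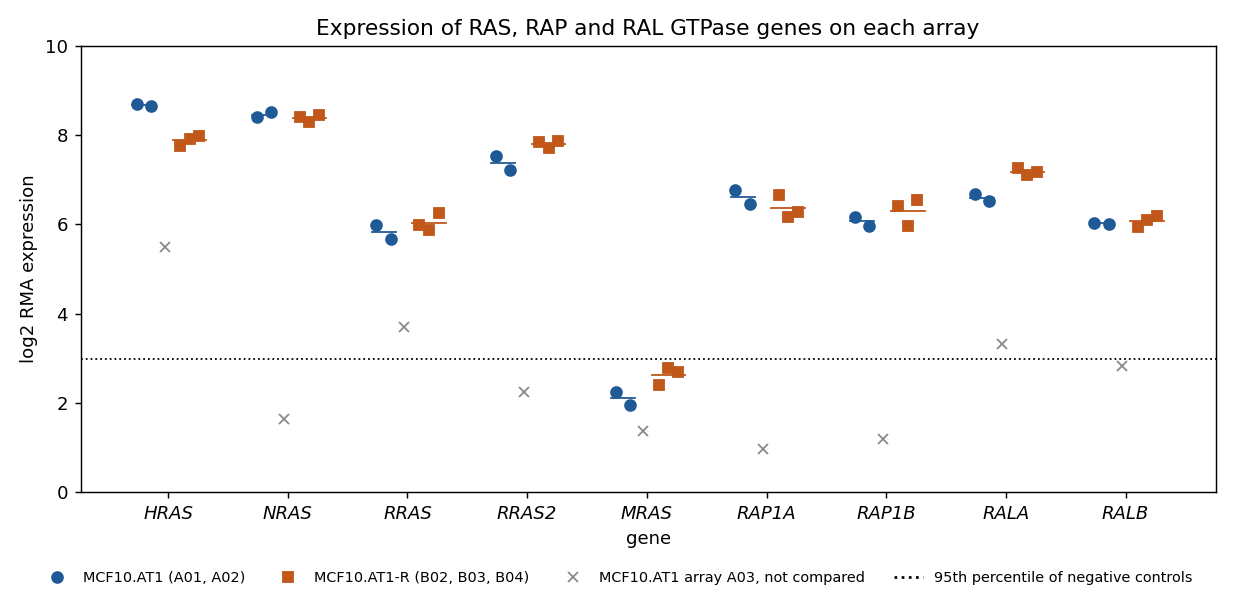
Log2 RMA expression (vertical axis) of the 9 GTPase genes on each array, with circles for MCF10.AT1, squares for MCF10.AT1-R, short lines for the mean of each line, crosses for the array A03 that was not compared, and a dotted line for the 95th percentile of the negative controls (2.99). HRAS was lower on all 3 resistant arrays (7.77 to 7.98) than on A01 and A02 (8.70 and 8.66), RALA and RRAS2 were higher, and MRAS lay under the dotted line on every array.

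HRAS, the oncogene introduced into this line, was read by probe set TC1100009678.hg.1. It was 8.70 on A01 and 8.66 on A02, against 7.77, 7.91 and 7.98 on B02, B03 and B04. All 3 resistant arrays lay below both parental ones, with a gap of 0.68 between the nearest arrays, and the arrays of each line stood close together (8.68 ± 0.03, SD, n = 2, against 7.88 ± 0.11, SD, n = 3). The log2 difference was -0.79 (95% interval -1.40 to -0.18), so the signal in MCF10.AT1-R was 57.7% of that in MCF10.AT1. Only 3.45% of the tested probe sets had a larger absolute difference. In limma with Benjamini-Hochberg adjustment the adjusted p was 0.316. That test used a common SD of 0.34 for every probe set, while the residual SD of HRAS itself was 0.09. With limma's trend option, which lets the expected SD depend on the expression level, HRAS passed FDR 5% with an adjusted p of 2.31e-07, and with the filter on low expression alone and the trend option the adjusted p was 0.000822. Of the probe sets tested, 2.68% (1.69% higher and 0.981% lower) and 1.6% passed under these settings.

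RALA, a GTPase that directs exocyst-dependent delivery of vesicles and is activated downstream of RAS through RALGDS and its relatives, was read by probe set TC0700007271.hg.1. Its values were 6.67 and 6.52 in MCF10.AT1 and 7.26, 7.10 and 7.19 in MCF10.AT1-R. The lines did not overlap, with a gap of 0.42. The log2 difference was 0.58 (95% interval -0.03 to 1.19), a signal 1.50-fold that of MCF10.AT1. In limma the adjusted p was 0.645, and with the trend option it was 0.0437, past FDR 5%. RALB, its close paralogue, was read by TC0200009091.hg.1 and was 6.03 and 6.02 in MCF10.AT1 against 5.94, 6.10 and 6.19 in MCF10.AT1-R. Its lines overlapped, and its log2 difference was 0.05 (95% interval -0.37 to 0.48 in limma without a filter). The difference between the changes of the RAL genes was not tested.

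RRAS2, also called TC21, is a RAS relative that can transform breast epithelial cells when mutated. Its probe set TC1100010175.hg.1 gave 7.53 and 7.22 in MCF10.AT1 and 7.85, 7.71 and 7.86 in MCF10.AT1-R. The lines did not overlap, but the gap of 0.18 was smaller than the distance between A01 and A02. The log2 difference was 0.43 (95% interval -0.18 to 1.05), with an adjusted p of 0.792 in limma and 0.117 with the trend option, and it was 0.28 without A02. RRAS, which regulates integrins and cell adhesion, was read by TC1900011153.hg.1 and was 5.99 and 5.66 in MCF10.AT1 against 5.99, 5.87 and 6.26 in MCF10.AT1-R. Its lines overlapped and its log2 difference was 0.21 (95% interval -0.40 to 0.82, limma adjusted p = 0.87), which was 0.05 without A02 and 0.37 without A01.

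NRAS, the other farnesylated RAS gene in the group, differed between the lines by less than the spread of its arrays. Its probe set TC0100015352.hg.1 gave 8.40 and 8.51 in MCF10.AT1 and 8.41, 8.29 and 8.46 in MCF10.AT1-R. The lines overlapped, and the log2 difference was -0.07 (95% interval -0.49 to 0.35 in limma without a filter). MRAS, which forms the SHOC2 phosphatase complex that activates RAF kinases, was read by TC0300008945.hg.1. It was 2.25 and 1.96 in MCF10.AT1 and 2.40, 2.79 and 2.69 in MCF10.AT1-R. These values did not overlap, but all 5 lay below the 95th percentile of the negative controls of their own arrays, which ranged from 2.88 to 3.14, so its log2 difference of 0.52 is not read as a difference in expression. Without MRAS the median log2 difference of the other 8 genes was 0.13.

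RAP1A and RAP1B, which act on integrins and on cell junctions, differed in sign and by less than their arrays spread. RAP1A (TC0100009418.hg.1) was 6.78 and 6.46 in MCF10.AT1 and 6.67, 6.18 and 6.29 in MCF10.AT1-R. RAP1B (TC1200008107.hg.1) was 6.17 and 5.98 in MCF10.AT1 and 6.41, 5.97 and 6.55 in MCF10.AT1-R. Both genes overlapped between the lines, with B02 of RAP1A and B03 of RAP1B lying among the parental values or close to them. The log2 differences were -0.24 (95% interval -0.85 to 0.37) and 0.24 (95% interval -0.37 to 0.85), and the limma adjusted p was 0.857 for RAP1A and 0.856 for RAP1B. With single arrays left out, RAP1A ranged from -0.40 (without A02) to -0.08 (without A01) and RAP1B from 0.12 (without B04) to 0.41 (without B03).

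**Figure D2:**
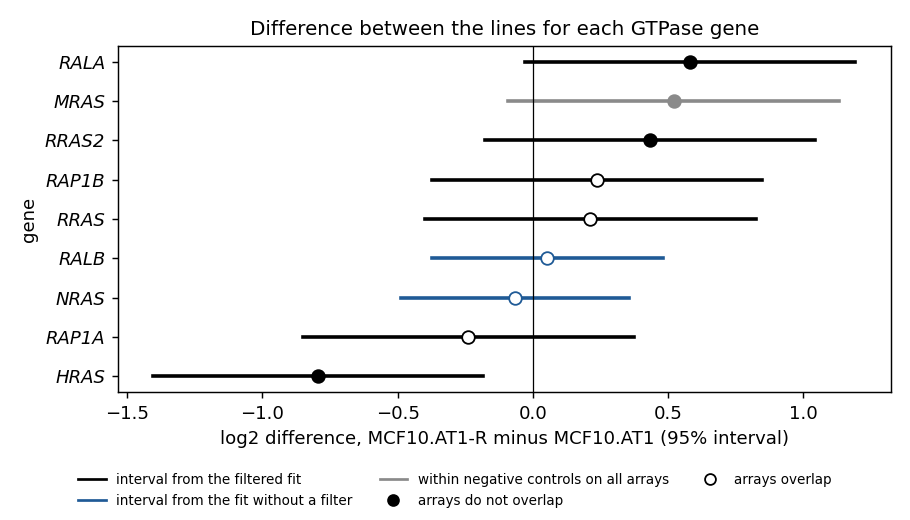
Log2 difference of MCF10.AT1-R (3 arrays) minus MCF10.AT1 (2 arrays) for each GTPase gene, in order of size, with the 95% interval of limma. Intervals are from the filtered fit for the 7 tested genes and from the fit without a filter for NRAS and RALB. The HRAS interval (-1.40 to -0.18) did not include 0 before adjustment over the table and the other intervals shown did. The SE of RALA was 0.312 in the filtered fit and 0.185 without a filter, so which intervals include 0 depends on the fit. Filled points mark the genes whose arrays did not overlap between the lines (HRAS, RRAS2, MRAS and RALA).

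On array A03 the same genes read lower than on the other MCF10.AT1 arrays, where MRAS was already within the negative controls. HRAS was 5.49, RRAS 3.70 and RALA 3.32, which were above the 95th percentile of that array's negative controls (3.15). NRAS at 1.64, RRAS2 at 2.25, MRAS at 1.37, RAP1A at 0.96, RAP1B at 1.19 and RALB at 2.83 were below it. Adding A03 to the parental line turned the HRAS difference to 0.27, with an adjusted p of 0.906 in limma. The direction reported for HRAS thus rests on the comparison without A03.

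The regulators and targets were read from 11 lists of 79 genes in all. None of the 65 that entered the test passed FDR 5% in limma, and 13 had an unadjusted p under 0.05, where 8.26% of all tested probe sets did. No overlap was seen for 22 higher and 13 lower genes (44.3% of 79), beside 23.3% of all transcript probe sets and 31.5% of those above the controls on all 5 arrays, and these shares are the background of each such count that follows. Such counts include genes within the controls, since 64 of the 79 genes were above them on every array of a line. The median log2 difference of the 79 genes was 0.08, and the range was -0.99 to 1.06. With the trend option 5 of the 65 passed FDR 5%, beside 2.68% of all tested probe sets. These were RASAL2, RAP1GAP2, SIPA1L3 and CCND1, higher in MCF10.AT1-R, and ETV5, lower.

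Among the 8 RAS exchange factors, none was higher without overlap and 2 were lower, RASGRF2 and RASGRP1. RASGRP1 was within the negative controls on every array. SOS1, the exchange factor recruited by receptor tyrosine kinases, was 4.20 and 4.0 in MCF10.AT1 and 4.22, 3.85 and 4.62 in MCF10.AT1-R, with overlapping lines. RASGRF2, a calcium-responsive exchange factor, was 4.23 and 4.34 against 3.69, 3.14 and 3.36, a log2 difference of -0.89 (limma adjusted p = 0.189), which was -0.42 as the mean of its 2 probe sets. Of the 6 RAP exchange factors, RAPGEF1 (0.50) and RAPGEF2 (0.43) lay higher and RAPGEF6 (-0.37) lower without overlap, and none had an unadjusted p under 0.05. Without A02 the RAPGEF2 difference was 0.18. RAPGEF5 had a difference of -0.44 with overlapping lines, which ranged from -0.84 to -0.05 as single arrays were left out.

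Of the 6 RAL exchange factors none passed FDR 5%, and 3 had an unadjusted p under 0.05, beside 8.26% of all tested probe sets. RGL1, a RALGDS relative that RAS binds, was 4.50 and 4.30 in MCF10.AT1 and 2.99, 3.95 and 3.26 in MCF10.AT1-R. All 3 resistant arrays were lower, B02 the most, and the log2 difference was -0.99 (limma adjusted p = 0.089). Without B03 the RGL1 log2 difference was -1.27 and it passed FDR 5% (limma adjusted p = 0.0133). Without B02 it was -0.79 (limma adjusted p = 0.448) and without B04 -0.92 (limma adjusted p = 0.264). It was -0.90 without A01 and -1.09 without A02. RALGDS, the founding RAS-regulated RAL exchange factor, was 3.97 and 3.57 against 4.84, 4.09 and 4.28, a difference of 0.64 (adjusted p = 0.565), and 0.42 without B02. RALGPS1, a RAL exchange factor without a RAS-binding domain, was 2.70 and 2.74 against 4.07, 3.15 and 3.26, a difference of 0.77 (adjusted p = 0.348) and 0.49 without B02, with both parental arrays within the negative controls.

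Of the 10 RAS GAPs, 3 were higher and 3 lower without overlap, and none passed FDR 5% in limma. RASAL2 was 5.69 and 5.42 in MCF10.AT1 and 6.40, 6.19 and 6.39 in MCF10.AT1-R. Its log2 difference was 0.77, with a limma adjusted p of 0.355, and 0.021 with the trend option. RASA1, the GAP known as p120, had a difference of 0.72 and RASA3 of -0.57 (-0.31 as the mean of its 3 probe sets), both short of FDR 5%, and NF1 (neurofibromin) a difference of 0.05 with overlapping lines.

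SIPA1L3, a RAP GAP with a role in epithelial polarity, had the largest difference of the 79 genes. It was 5.56 and 5.66 in MCF10.AT1 and 6.62, 6.49 and 6.89 in MCF10.AT1-R. Every resistant array was higher, and the log2 difference was 1.06 (SE 0.31), with a limma adjusted p of 0.0544, just short of FDR 5%. With the trend option the adjusted p was 4.52e-05, and with that option and the filter on low expression alone 0.00294. In limma without B03 the adjusted p was 0.0422. In limma without B02 it was 0.109 and without B04 0.235. The log2 difference was 1.005 without A01 and 1.11 without A02. RAP1GAP2, another RAP GAP, was 6.98 on both parental arrays and 7.46, 7.65 and 7.56 on the resistant ones, a difference of 0.58 (adjusted p = 0.65, and 0.0191 with the trend option). SIPA1L2 had a difference of -0.34 without overlap, and in the RAL GAP complex RALGAPA2 had 0.69 without overlap while RALGAPA1 (0.18) and RALGAPB (-0.12) overlapped. With single arrays left out, RALGAPB ranged from -0.22 (without A02) to -0.03 (without A01).

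Among 8 RAS effectors, RASSF1, a growth-restraining scaffold, had a log2 difference of 0.67 (0.41 without A01, where it was within the negative controls), SHOC2, the partner of MRAS, 0.39, and TIAM1, an exchange factor for RAC, -0.57, each without overlap and none past FDR 5%. AFDN (afadin, which RAP1 recruits to junctions) had a difference of 0.49 without overlap, and 0.31 without A02. The exocyst subunits EXOC2 and EXOC8, which RAL proteins bind, had differences of 0.07 and -0.11 and overlapped.

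The enzymes that lipidate and trim the CAAX motif showed no separation between the lines. The farnesyltransferase subunits FNTA and FNTB had log2 differences of -0.09 and -0.17, and PGGT1B, the beta subunit of the enzyme that attaches geranylgeranyl, of -0.07. RCE1, the CAAX protease, was at 0.22 and ICMT, the CAAX methyltransferase, at 0.12. All 5 overlapped between the lines. Of the 14 genes of this list, 4 (28.6%) did not overlap, a share close to the background. They were ZDHHC9 (0.37), a subunit of a palmitoyltransferase for HRAS and NRAS, and the thioesterases LYPLA1 (0.55), LYPLA2 (0.22) and ABHD17C (0.78), all higher in MCF10.AT1-R. Of the other genes of palmitate turnover in the list, GOLGA7 (0.09), ABHD17A (-0.26) and ABHD17B (0.25) overlapped. None passed FDR 5%, and ABHD17C was 3.33 and 3.16 against 3.92, 4.22 and 3.93 (limma adjusted p = 0.341).

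Of 10 transcripts known to follow ERK signalling, 4 lay higher and 3 lower without overlap, and none passed FDR 5% in limma. ETV5, an ETS factor induced by ERK, was 8.55 and 8.64 in MCF10.AT1 and 7.93, 8.01 and 7.99 in MCF10.AT1-R. Its log2 difference was -0.62, with an adjusted p of 0.589, and 0.000192 with the trend option. CCND1 (cyclin D1) went the other way, at 7.81 and 7.94 against 8.38, 8.60 and 8.59. Its difference was 0.65, with a limma adjusted p of 0.545, and 5.47e-05 with the trend option. With the filter on low expression alone and the trend option the adjusted p was 0.00336 for ETV5 and 0.00554 for CCND1. SPRY2, a feedback inhibitor of receptor signalling, had a difference of -0.67 (5.06 and 4.91 against 4.27, 4.64 and 4.02, adjusted p = 0.506), and DUSP6, the ERK phosphatase, a difference of -0.20 (8.59 and 8.73 against 8.50, 8.39 and 8.50). The other genes higher without overlap were DUSP4 (0.44), EPHA2 (0.39) and PHLDA1 (0.21). The list median was -0.03.

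**Figure D3:**
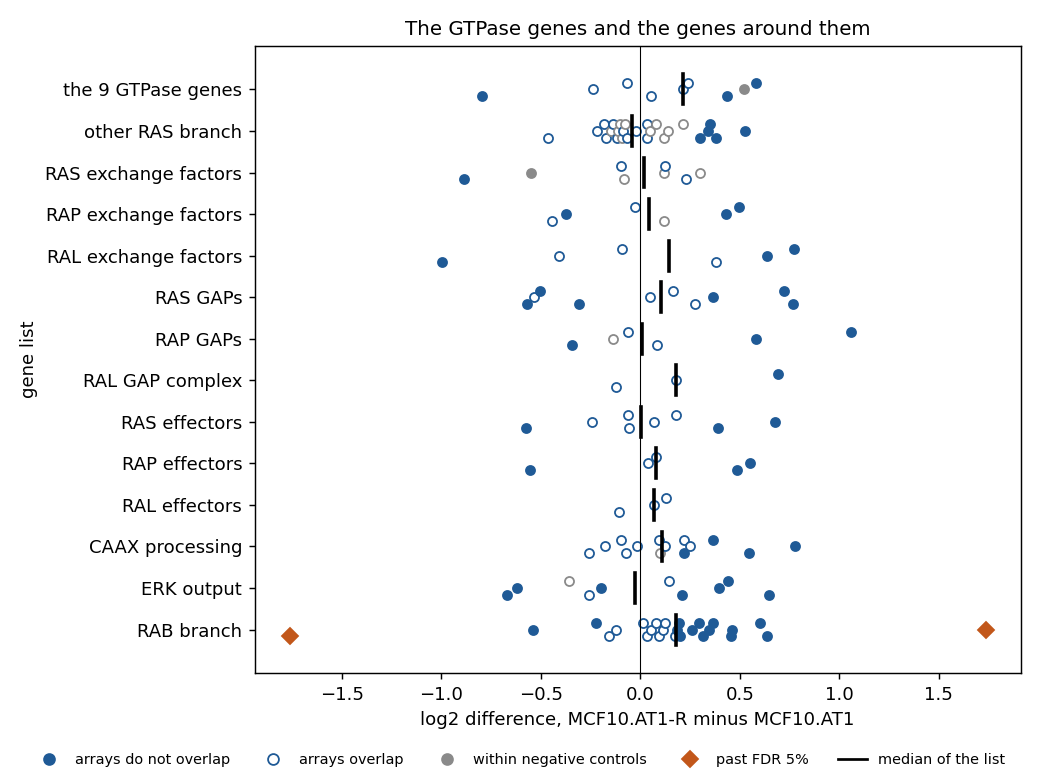
Log2 difference of MCF10.AT1-R minus MCF10.AT1 (horizontal axis) for each gene of the lists, 1 point per gene, with a vertical bar for the list median. The RAS-branch lists spread to both sides of 0 between -0.99 and 1.06 with no gene past FDR 5%, whereas the RAB list held 2 called genes, RAB25 at 1.74 and RAB31 at -1.76.

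Other small GTPase genes were read for comparison. In the other 26 genes of the RAS branch, 5 lay higher without overlap and 0 lower (19.2%, below the background of 23.3%), and the median difference was -0.04. RIT1, a RAS relative, had a difference of 0.53 and NKIRAS1, an inhibitor of NF-kappaB signalling, of 0.35. RASL10A had a difference of -0.46 with overlapping lines, and 0.0198 without A01. The 26 RAB genes, which direct vesicle traffic, had a median of 0.18. Of these, 16 (61.5%, 13 higher and 3 lower) did not overlap. This was so for 23.3% of all transcript probe sets and 31.5% of those above the controls on all 5 arrays. All 26 RAB genes were above the controls on every array of at least 1 line. Of the 14 RAB genes that entered the test 2 passed FDR 5%, beside 1.2% of all tested probe sets. RAB25, an epithelial RAB of the recycling endosome, rose from 6.64 and 6.50 to 8.29, 8.25 and 8.39, a log2 change of 1.74 (adjusted p = 9.35e-06). RAB31, an endosomal RAB, fell from 4.02 and 3.80 to 2.99, 1.50 and 1.96, a change of -1.76 (adjusted p = 6.08e-06), with 2 of its 3 resistant arrays within the negative controls. The RAB31 call was lost when the probe sets of a symbol were averaged (-0.84, adjusted p = 0.254), and with the filter on low expression alone (adjusted p = 0.263) or no filter (adjusted p = 0.307). RAB11A, a RAB of the recycling endosome, had a difference of 0.64 (limma adjusted p = 0.566), and 0.18 as the mean of its probe sets. It passed with the trend option (adjusted p = 1.21e-06, and 0.0107 with the filter on low expression alone). The difference between these families and the 9 genes was not tested.

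Markers of mammary basal epithelium moved with the lines. All 8 (KRT5, KRT14, KRT17, KRT6A, CDH3, LAMB3, ITGB4 and CDH1) were above the controls on all 5 arrays and higher in MCF10.AT1-R without overlap, and 6 passed FDR 5% in limma, beside 1.2% of all tested probe sets. Their summed log2 level was 59.3 on A01 and 59.3 on A02 against 73.9, 73.6 and 74.4 on B02, B03 and B04, and KRT6A had the highest value. Of 6 markers of cornifying keratinocytes 3 rose past FDR 5% in limma, IVL (involucrin) by 3.23, CDSN by 1.14 and KRT1 by 1.10. KRT10 (0.58, limma adjusted p = 0.648) was also higher without overlap, with A01 within the controls. LOR (-0.14) and FLG (-0.22) overlapped, with FLG within the controls on every array. The sums of the 6 markers were 19.3 and 19.0 against 24.4, 24.0 and 26.1. Of the 5 fibroblast markers DCN fell by 2.15, of the 5 leukocyte markers CD14 fell by 1.12, and of the 4 endothelial markers PECAM1 fell by 1.12. With the filter on low expression alone or no filter, the calls of CDSN, KRT1, CD14 and PECAM1 were lost (adjusted p 0.0966 to 0.263), and that of CDH1 was lost with no filter (adjusted p = 0.0616). LUM, PDGFRB, PTPRC, LYZ and KDR, defining markers of the last 3 types, were within the controls on all 5 arrays. The part of these differences in those of the GTPase genes was not tested. In a culture, more RNA per cell and more cells with a transcript cannot be told apart.

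The summed log2 levels of the fibroblast list were 20.1 and 20.5 in MCF10.AT1 against 18.1, 17.5 and 18.5 in MCF10.AT1-R, with COL1A2 the highest. Those of the leukocyte list were 14.3 and 16.1 against 15.0, 15.7 and 15.7. Those of the endothelial list were 13.8 and 13.4 against 12.7, 11.9 and 11.6, with VWF the highest. COL1A2 and VWF varied too little to enter the test. Most of the fibroblast and endothelial differences lay in DCN and PECAM1, and the sums include genes within the controls.

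The genes beside HRAS on its chromosome were read after its difference had been seen. Among the 5 protein-coding genes on each side, 0 were lower without overlap and 5 were higher, where 11.1% and 12.2% of all transcript probe sets were. The other 5 overlapped, RNH1 (-0.22), PTDSS2 (-0.09) and LMNTD2 (-0.02) with the sign of HRAS, and none of the 10 passed FDR 5%. Their median log2 difference was 0.21. LRRC56, which overlaps HRAS in the RefSeq annotation, was 4.63 and 4.58 in MCF10.AT1 and 4.91, 5.14 and 5.15 in MCF10.AT1-R. Its difference was 0.47, opposite in sign to that of HRAS. Around RRAS2, 4 neighbours were higher without overlap and 1 was lower, and around RALA 2 were higher and 2 lower. SPON1, among the 4 higher neighbours of RRAS2, was within the negative controls on every array. INHBA, which encodes the activin A subunit and is the fourth gene after RALA, was the single neighbour past FDR 5%. It rose from 6.29 and 6.02 to 7.37, 7.15 and 7.53, a log2 change of 1.20 (limma adjusted p = 0.0149).

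**Figure D4:**
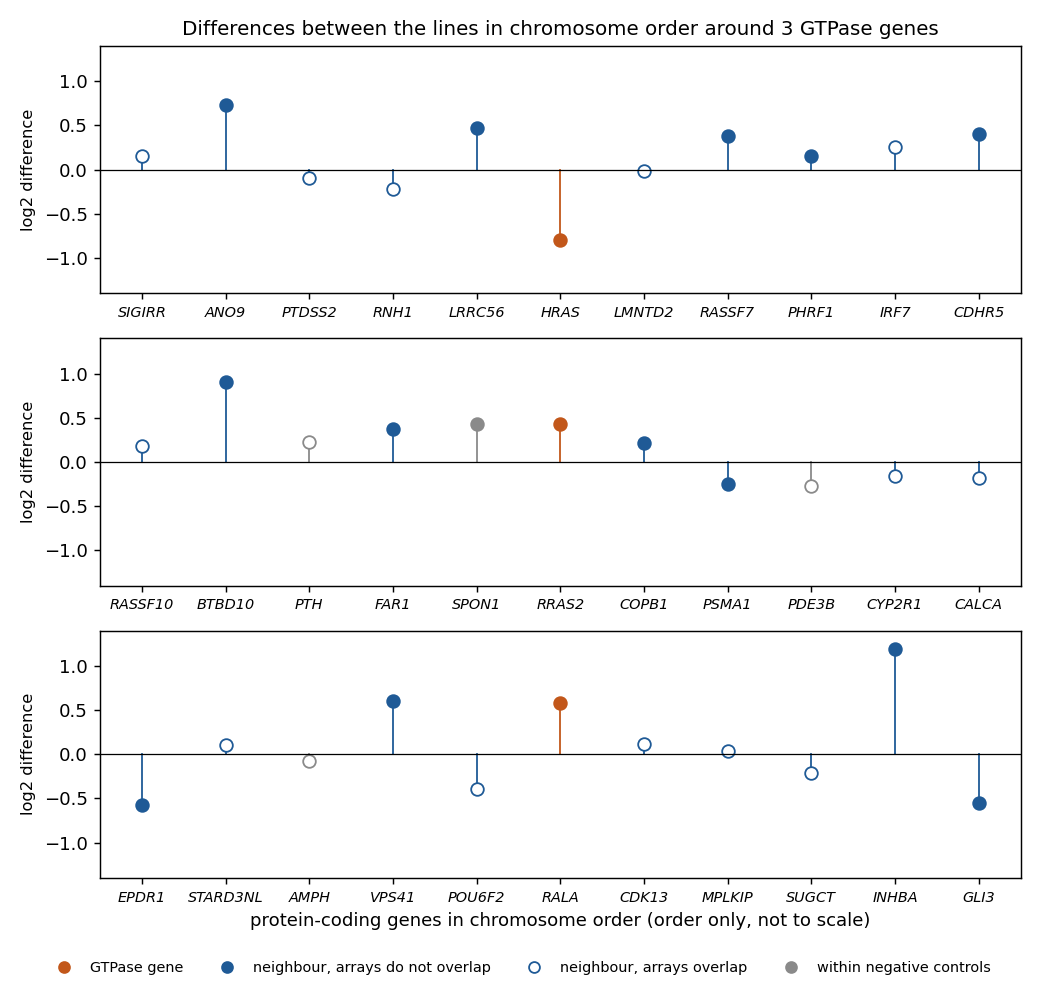
Log2 difference of MCF10.AT1-R minus MCF10.AT1 (vertical axis) for the 5 protein-coding genes on each side of HRAS (top), RRAS2 (middle) and RALA (bottom), in chromosome order and not to scale. HRAS stood at -0.79 among neighbours with a median of 0.21, and around RALA (0.58) the median was -0.02.

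The symbols whose values over the 5 arrays, each centred on its mean, lay nearest to those of HRAS among 36080 tested symbols were RP11-423O2.5 (root mean square difference 0.0386), EMP3 (0.0428) and SLC35G1 (0.0442). EMP3, an epithelial membrane protein, was 9.83 and 9.78 in MCF10.AT1 and 8.80, 8.94 and 9.03 in MCF10.AT1-R, a log2 difference of -0.88. SLC35G1, a membrane transporter relative, was 4.65 and 4.70 against 3.73, 3.83 and 3.90, a difference of -0.86. Nearest to RALA were the array's predicted genes fawsnorbu (0.0264) and deysoybo (0.0287), and DST (0.0367). DST, the cytolinker dystonin, was 7.51 and 7.32 against 8.02, 7.84 and 8.02, a difference of 0.55. Likeness over 5 arrays in 2 lines rests mainly on the step between the lines.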

How the data were processed

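RMA values were computed by the authors with the Bioconductor packages affy and oligo and deposited as log2 expression values for 138745 probe sets on 6 Clariom D arrays, unfiltered. The versions of these packages and the genome build are not given in the sources used here. Array names carry a letter and a number but neither the line nor the labels' replicate numbers. The letter A was taken as MCF10.AT1 and B as MCF10.AT1-R because the study removed array A3, an A array, and kept 2 parental and 3 resistant arrays, and the sign of every difference depends on this.

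The 2995 control probe sets were left out of the tests. Of 135750 transcript probe sets, 51457 were tested whose mean over the 5 arrays exceeded the median (1.88) and whose SD exceeded the lowest 25% (0.176), limits set here. The comparison of the lines ran in R 4.3.3 (limma 3.58.1, functions lmFit and eBayes), p-values were adjusted over all tested probe sets by the Benjamini-Hochberg method, and the threshold was FDR 5%. The scripts were tested on simulated data. With 2 arrays against 3, an exact one-sided permutation test of a single gene cannot go below 0.1, so none is given. Nothing in the labels says that the arrays of a line came from separate cultures begun apart, and p-values rest on the spread between arrays. In limma with the filters on low expression and variation, this spread was pooled to a common SD of 0.34 for every tested probe set. With the same filters and the trend option, the SD was set by the expression level. A gene's own spread had no weight in these p-values. The number of arrays limits the precision. Probe sets below the 95th percentile of the 612 negative controls were taken as within background.

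The 9 genes and the lists were chosen with earlier results of these data known, so counts over the lists are descriptions without a test. In each list the genes past FDR 5% and the 3 with the largest absolute difference above the controls were named, other genes being named after their values had been seen. Promoter windows are from RefSeq (GRCh38.p14). Alternatives changed the arrays, filters, trend option, scaling, floor and probe set rule. Some genes of the lists enter the counts but are not reported here by name. Protein sequences were not used here.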

Additional observations from a re-analysis of the deposited data

Results flagged for a closer look

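Array A03 of MCF10.AT1 was outside the comparison of the lines, and 3 of the GTPase genes read above the negative controls there. HRAS was 5.49, RRAS 3.70 and RALA 3.32 on A03, against a 95th percentile of its negative controls of 3.15. On A01 and A02 the same genes were 8.70 and 8.66, 5.99 and 5.66, and 6.67 and 6.52. The basal epithelial markers of A03 summed to 31.1, against 59.3 on each of the other MCF10.AT1 arrays. Why A03 stands apart was not tested.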

How the results depend on the processing

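The number of arrays limits every value. HRAS kept its direction under every alternative run without A03 (log2 difference -0.84 to -0.73), as did RALA (0.51 to 0.66) and RRAS2 (0.28 to 0.59), and MRAS became 0 once values were raised to the controls. None of the 9 genes was called under any alternative except with the trend option, with either filter. There HRAS (-0.79) and RALA (0.58) passed, so that 2 of the 9 genes were called, and 5 genes of the regulator and target lists. Without B03, 2 genes of those lists, RGL1 and SIPA1L3, were called (range over resistant arrays left out, 0 to 2). These counts leave out the RAB list, whose RAB25 and RAB31 passed with any resistant array left out. With A03 the differences reversed to 0.27 for HRAS, 2.20 for NRAS, 1.65 for RAP1A, 0.039 for RASA3, 0.28 for SIPA1L2, 1.40 for RALGAPB, 0.38 for TIAM1, 0.10 for EXOC8, 0.31 for SPRY2 and 1.88 for ETV5, and the calls of RAB25 (3.17) and RAB31 (-1.14) were lost. Differences also reversed without A01 (EXOC8 0.13, EXOC2 -0.02, RASL10A 0.0198 against -0.46 with all 5 arrays), A02 (RALGAPA1 -0.0093), B02 (EXOC2 -0.16) and B04 (RALB -0.00117, SOS1 -0.0686, EXOC8 0.06, EXOC2 -0.04). Over the arrays left out in turn, the lowest and highest differences were -0.00117 and 0.12 for RALB, -0.0686 and 0.316 for SOS1, -0.0093 and 0.36 for RALGAPA1, -0.34 and 0.13 for EXOC8, -0.16 and 0.40 for EXOC2, and -0.95 and 0.0198 for RASL10A. Over the table, the 620 probe sets past FDR 5% (390 higher, 230 lower) became 26 (26 and 0) with A03, 182 (147 and 35) with the low-expression filter alone, 177 (143 and 34) without a filter, 1377 (872 and 505) with the trend option, 1086 (764 higher) with that option and the low-expression filter alone, and 272 (218 and 54) with values raised to the controls. Leaving out 1 array gave 271 to 595 (156 to 396 higher, 99 to 233 lower), with 314 without A01 and 271 without A02. No paired analysis was possible because the array names do not carry the labels' replicate numbers. The cause of these shifts was not tested.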
